A study of Drosophila melanogaster with 4 samples.

Results

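The wide domains described here are long stretches of the Drosophila melanogaster genome marked by trimethylation of lysine 27 on histone H3 (H3K27me3), on the autosomal arms 2L, 3L and 3R. They were chosen by the positions of the enriched regions in the list deposited for the series as a whole. Regions less than 5000 bp apart were joined, and joined domains of at least 40 kb were kept. The 3 arms held 6610 called regions, which joined into 1653 stretches, and 247 of these (14.9%) were wide. They took in 2926 of the called regions. Over every sequence of the genome the list held 10507 regions, or 3032 after joining.

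H3K27me3 is laid down by Polycomb repressive complex 2 (PRC2), whose catalytic subunit in flies is Enhancer of zeste. The mark is bound by the chromodomain protein Polycomb, a subunit of PRC1, and is associated with stable silencing. In flies PRC2 and PRC1 are brought to Polycomb response elements, and the mark spreads from there over whole gene clusters, among them the Hox genes and other genes for developmental transcription factors. A cell that uses one of these genes commonly lacks the mark over it, so a tissue of many cell types gives a mixture.

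The material was head nuclei of Oregon-R flies, a wild-type laboratory strain, at a stage given as mixed adult. Flies came from population cages and were therefore pooled, and the labels state neither sex nor exact age. There was 1 group, with no treatment and no mutant: 2 ChIP replicates made with an Abcam antibody (lot 3) and 2 input libraries, 1 for each ChIP replicate. Nothing in the labels ties the replicates to separate fly collections, and their spread may therefore be technical.

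Each replicate had its own list of called regions, with 4865 regions in replicate 1 and 10330 in replicate 2, and depth is unknown in both. No list was given for the inputs. The whole-series list rests on the same libraries as the replicate lists, so coverage of its domains by a replicate is a description and not an independent test, and no p-value was computed. In a list from whole heads, a mark present in some of the cells and a weaker mark present in all cells cannot be told apart.

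The 247 wide domains spanned 23.3 Mb, 30.9% of the 75.5 Mb of the 3 arms. They held 68.3% of the called length on these arms, 20.3 Mb of 29.7 Mb. The density was nearly the same on 3R and 2L, with 3.51 and 3.52 domains per Mb, and lower on 3L, with 2.77 per Mb. Wide domains made up 34.2% of 3R (98 domains, 9.53 Mb), 32.3% of 2L (81 domains, 7.43 Mb) and 25.9% of 3L (68 domains, 6.36 Mb). The list itself has no replicate, so no error can be given for these shares. Within the domains, 3L was also the arm of lowest coverage by the replicates, at 67.1% ± 6.00 (SD, n = 2), against 69.2% ± 3.85 on 2L and 74.5% ± 8.21 on 3R. The arms stood in the same order in each replicate, 68.7%, 66.5% and 62.9% on 3R, 2L and 3L in replicate 1 and 80.3%, 71.9% and 71.4% in replicate 2, but the means differed by about as much as the replicates did.

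Widths ran from 40.014 kb to 405 kb, with a median of 75.55 kb. The median hardly differed between the arms, at 73.05 kb on 2L, 77.3 kb on 3L and 75.8 kb on 3R. Of the domains, 84 reached 100 kb, 30 reached 150 kb, 15 reached 200 kb and 3 reached 300 kb. At the lower end, 42 domains were under 50 kb. The limit of 40 kb cut through a continuous range. Just inside it lay domains of 40.014 kb at 13815209 on 3L, 40.031 kb at 24462082 on 3R and 40.072 kb at 25508874 on 3R. Just outside lay stretches of 39.925 kb at 15999005 on 3R, 39.58 kb at 3995041 on 3L and 38.796 kb at 5464695 on 3R.

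Because the rule bridges gaps, a domain is not all called sequence. Of the wide length, 86.9% lay inside called regions, 89.1% on 3R, 86.2% on 2L and 84.2% on 3L. The share per domain had a median of 87.2% and ran from 44.0% to 100%. It was 100% in 14 domains, at least 95% in 68, at least 90% in 106 and at least 50% in 242 of the 247. Joined stretches of 10 to 40 kb had 70.8% of their length called, and those under 10 kb, often a single region, 79.99%.

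**Figure D1:**
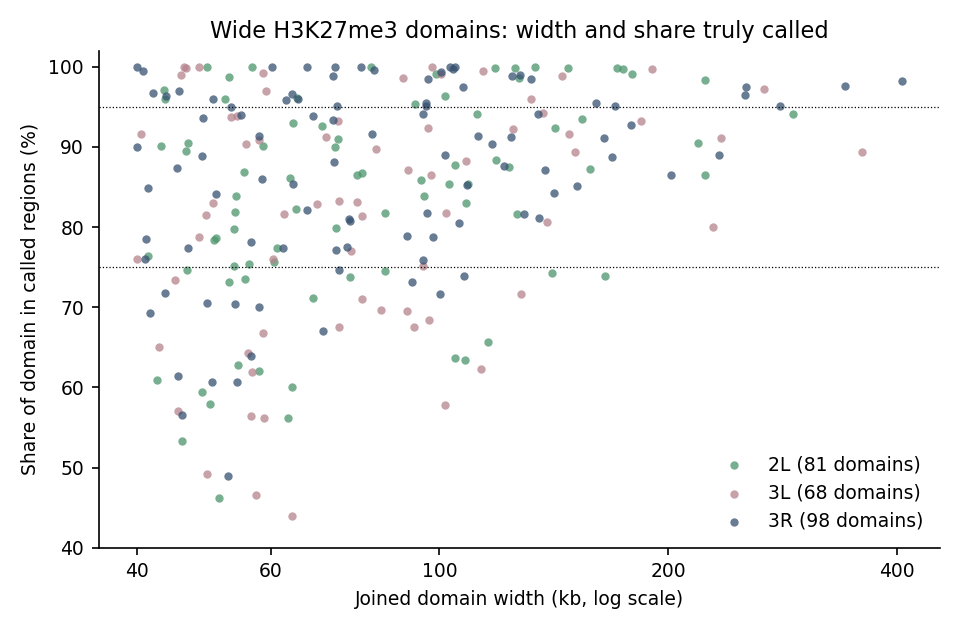
Width of each wide domain (x axis, kb, log scale) against the share of it that lay in called regions of the whole-series list (y axis, %), 1 point per domain, coloured by arm; dotted lines mark 75% and 95%. Domains of every width up to about 100 kb spread over the whole range of shares, while the 15 domains of 200 kb or more all lie above the line at 75%.

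The domains differed in make-up. Some were held by few regions: 13 consisted of 1 called region and 20 of 2, and in 69 domains the widest region filled at least 50% of the domain. Many others were strings of short regions. The median domain held 11 regions, 39 domains held 20 or more, and in 64 domains no region reached 10 kb. Called regions inside wide domains had a median width of 2795.5 bp, against a longest of 185752 bp, and 78 domains held a region that was itself 40 kb or more. Across the 247 domains the called share fell with the number of regions (Spearman's rho −0.70) and was only weakly related to width (0.27), both given as descriptions of domains that share libraries and calls.

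Most bridged gaps were short. There were 2675 gaps with a median of 704 bp, 1080 of them (40.4%) under 500 bp and 96 (3.59%) of 4000 bp or more, next to the limit set by the rule. Replicate 1 left 1848 gaps untouched (69.1%) and replicate 2 left 1594 (59.6%), while 892 (33.3%) were untouched in both. Regions of a replicate covered 7.83% and 5.83% of the gap length, a mean of 6.83% ± 1.42 (SD, n = 2). A gap was bridged whole in at least 1 replicate in 341 cases (12.7%).

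For description the domains were divided by called share, after the shares had been seen, into 68 dense domains (95% or more), 123 middle domains (75 to 95%) and 56 patchy domains (under 75%). The dense domains spanned 7.60 Mb and were 34.7% of the wide domains of 3R, 24.7% of those of 2L and 20.6% of those of 3L. Their median width was 96.3 kb, from a median of 3 called regions, the widest of which filled 79.0% of the domain. Patchy domains spanned 3.94 Mb, with a median width of 58.0 kb, a median of 15 regions, and a widest region of 5.68 kb. They were 29.4% of the wide domains of 3L and 16.3% of those of 3R.

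Several dense domains span loci that are textbook targets of Polycomb. Of such loci 12 were looked up, and all 12 lay in dense domains, a class of 68 of the 247 wide domains. Others that had been planned, among them dpp, cad, vvl and Dichaete, were not looked up. The 12 are thus a chosen list and give no rate for Polycomb targets. The ties between domain and locus below come from general knowledge of the release 5 map and not from an annotation of that release, so gene ends were not set against domain edges. The widest domain of all lay at 2485983 to 2891351 on 3R, over the Antennapedia complex, the Hox genes that specify head and anterior thorax. It measured 405 kb and was 98.2% called in 6 regions. It was covered to 98.4% in replicate 1, by 3 regions, and to 94.98% in replicate 2, by 20 regions, a mean of 96.7% ± 2.43 (SD, n = 2). The bithorax complex, the Hox genes of the posterior thorax and abdomen, lay in a domain of 342 kb at 12478292 to 12819952 on 3R. Its coverage was 96.6% in replicate 1 (3 regions) and 94.6% in replicate 2 (15 regions). Both Hox domains were thus nearly filled in each replicate, but the same length was cut into several times more pieces in replicate 2.

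Homothorax encodes a homeodomain cofactor of Hox proteins. Its locus lay in the third widest domain of 3R, 280.3 kb at 6241642 to 6521919, which was covered to 93.0% in replicate 1 and 92.8% in replicate 2. On 3L the Iroquois complex, a cluster of homeobox genes that pattern the dorsal body and eye, lay in a domain of 191 kb at 12534333 to 12724985. Replicate 1 covered 98.9% of it and replicate 2 covered 97.0%. The replicates differed by less than 2 percentage points in both domains.

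On 2L the genes salm and salr, which encode zinc finger proteins of the spalt family, lay in a domain of 224 kb at 11283934 to 11507494. Its coverage was 94.7% in replicate 1 and 97.2% in replicate 2. Escargot, a zinc finger gene of the Snail family, lay in a domain of 174 kb at 15272709 to 15446898, which replicate 1 covered to 98.6% and replicate 2 to 94.5%. The POU homeobox genes nub and pdm2 lay in 126 kb at 12564712 to 12690458, a single region in replicate 1 (100%) and 8 regions in replicate 2 (93.8%). The odd-skipped cluster of zinc finger genes lay in 101.9 kb at 3517538 to 3619407, with 91.2% and 95.1% covered. Wingless, a Wnt ligand gene, lay in 92.9 kb at 7251513 to 7344385, with 92.5% and 90.6% covered. On each of these 5 domains of 2L the mean of the replicates exceeded 91%, and neither replicate was always the higher one.

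On 3R, 3 further domains of this kind were named. The NK homeobox cluster, whose genes act in mesoderm and muscle, lay in a domain of 105 kb at 17203231 to 17308009, called as 1 region in the whole-series list. Replicate 1 also had it as 1 region (100%) and replicate 2 as 2 regions (96.6%). The head gap gene ems and its neighbour E5 lay in 125 kb at 9665665 to 9790176, with 98.6% and 97.9% covered. The Enhancer of split complex, a cluster of Notch target genes, lay in the narrowest of the domains tied to a locus, 45.5 kb at 21821571 to 21867088. Its coverage was 83.6% in replicate 1 (6 regions) and 97.9% in replicate 2 (4 regions), so this domain was the more broken one in replicate 1, unlike the Hox domains.

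Some breaks inside dense domains stood at the same place in all 3 lists. Stretches of at least 1000 bp in no list, a length set after the gaps had been seen, numbered 35 in 25 of the 68 dense domains and made up 0.945% of their length. In the bithorax domain such a hole of 4044 bp lay at 12583145 to 12587188, 105 kb from the domain start, with a further one of 2800 bp near the distal edge. The Antennapedia domain had one of 3940 bp at 2645187 to 2649126, 159 kb from its start. The homothorax domain had 3 holes of 2646 to 3022 bp close together near its end, between 6501200 and 6512109. The longest hole of a dense domain, 4607 bp, lay at 25324612 to 25329218 on 3R. Whether reads can be placed in these holes is not recorded in the lists, and the part of repeats or of missing reads was not tested. In patchy domains such holes were the rule: 441 holes in all 56 domains took 26.8% of the length, and in middle domains 471 holes took 8.41%.

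**Figure D2:**
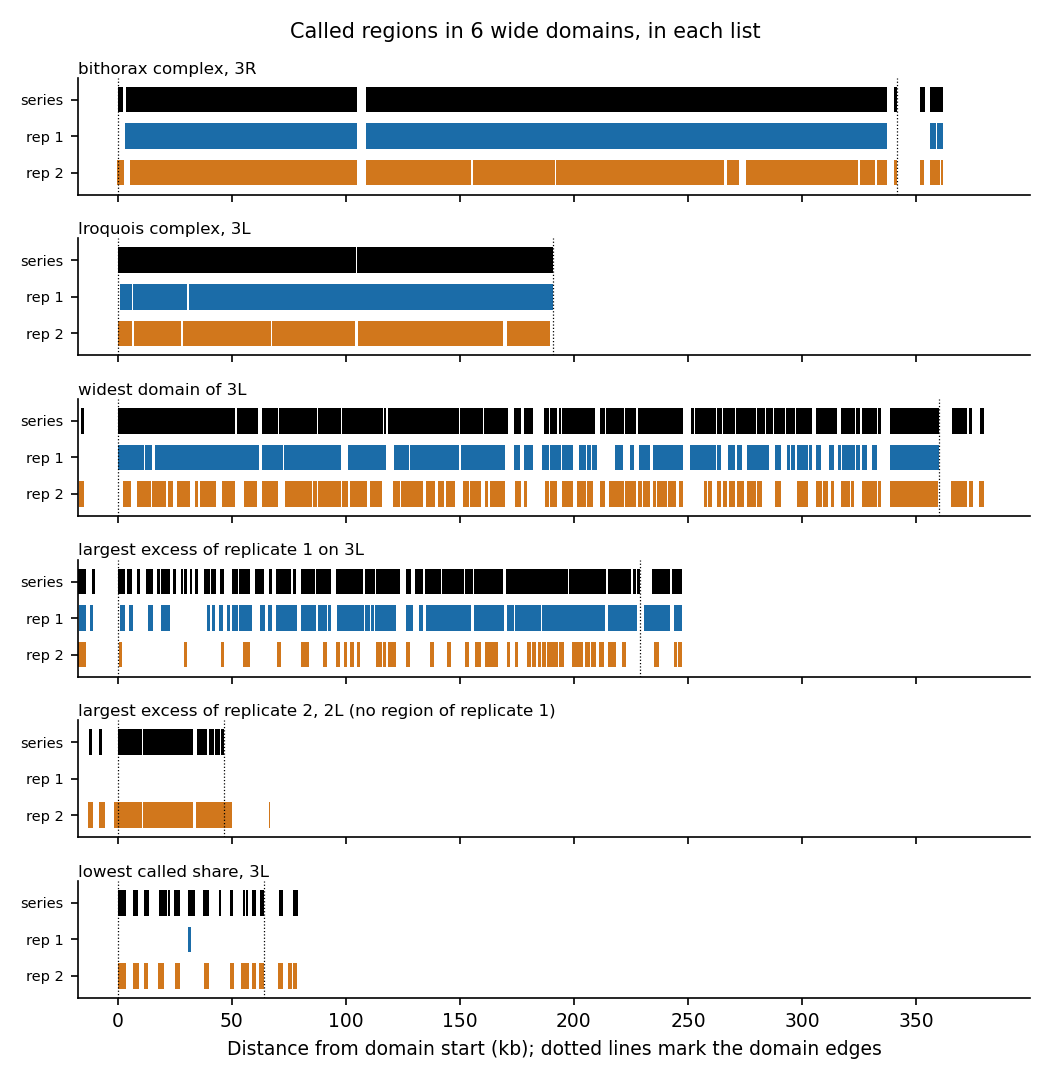
Called regions (bars) of the whole-series list (black), replicate 1 (blue) and replicate 2 (orange) in 6 wide domains, against the distance from the domain start (kb); dotted lines mark the domain edges and regions up to about 20 kb outside are drawn. The bithorax and Iroquois domains are nearly filled in every list, with the 4044 bp hole of the bithorax domain at the same place in all 3; the other 4 domains are broken into more pieces in the whole-series list, and 1 of them has no region of replicate 1.

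Other domains as wide as these were broken into many regions. The widest domain of 3L, 360.0 kb at 13044343 to 13404338, held 49 regions, the most of any domain, and was 89.4% called. Its coverage was 79.8% in replicate 1 (47 regions) and 67.8% in replicate 2 (64 regions). The widest of 2L, 292 kb at 1227293 to 1518963, held 18 regions and was covered to 86.8% and 84.3%. Both domains were thus wide in the joined list without being filled in either replicate.

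Among the 8 widest domains of each arm, 24 in all, the 3 largest differences between replicates were on 3L. At 18204341 to 18433117 on 3L, a domain of 229 kb in 45 regions, replicate 1 covered 73.3% and replicate 2 covered 33.8%. At 22301330 to 22536032, 235 kb in 29 regions, the order was the opposite, with 52.0% in replicate 1 and 85.3% in replicate 2. At 5361904 to 5509977, 148 kb, replicate 1 covered 91.3% and replicate 2 covered 64.6%. Domains of like width thus leaned to either replicate, by up to 39.5 percentage points. The domains at 13530910 to 13798367 (267 kb, 97.2% and 86.2%), 20535043 to 20719174 (184 kb, 89.6% and 78.9%) and 17235886 to 17386511 (151 kb, 70.4% and 82.5%) lay between these extremes.

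Of the others among the widest on 2L, 2 were covered to over 90% in each replicate. The domain at 5339074 to 5518230, 179 kb, was covered to 98.3% and 95.1%, and that at 5549642 to 5720719, 171 kb, to 98.3% and 92.2%. The domain at 21762636 to 21981254, 219 kb, was covered to 88.9% and 77.7%. At 15914081 to 16137617, 224 kb in 32 regions, the values were 76.8% and 55.9%, and at 15087074 to 15252384, 165 kb in 33 regions, 48.7% and 57.4%. On 3R the domains at 24171424 to 24424293 (253 kb, 81.5% and 93.3%) and 18621032 to 18873646 (253 kb, 83.6% and 94.1%) were fuller in replicate 2. The domain at 8549709 to 8782594 (233 kb, 82.6% and 69.6%) was fuller in replicate 1, and those at 13007279 to 13209204 (202 kb, 69.1% and 71.5%) and 16156910 to 16335541 (179 kb, 72.5% and 80.3%) were fuller in replicate 2.

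Over all wide domains, replicate 1 covered 66.4% of the length and replicate 2 covered 75.2%, a mean of 70.8% ± 6.22 (SD, n = 2). Both covered 58.1% and at least 1 covered 83.5%. The difference of 8.79 percentage points between replicates was smaller than in narrower stretches. In those of 10 to 40 kb the shares were 28.7% and 57.6%, a difference of 28.9 points, and in those under 10 kb 12.4% and 64.5%, a difference of 52.2 points. Replicate 1, the shorter list, had no region in 3 of 247 wide domains, in 121 of 471 stretches of 10 to 40 kb and in 778 of 935 under 10 kb. Replicate 2 had a region in every wide domain.

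Of the 247 wide domains, 150 (60.7%) were covered to at least 50% by replicate 1, against 19.3% of all 1653 joined stretches. For replicate 2 the count was 214 (86.6%), against 69.7% of all stretches. Coverage of at least 50% in both was seen in 144 wide domains (58.3%), against 16.5% of all, and of at least 90% in both in 44 (17.8%), against 4.23% of all. Wide domains did not lead at every limit. Replicate 2 alone covered 59 of them (23.9%) to at least 90%, against 7.22% of stretches of 10 to 40 kb and 46.6% of those under 10 kb. For replicate 1 alone these shares were 21.9%, 6.58% and 2.35%. A wide stretch has room for many regions of a list and the whole-series list shares its reads with the replicates, so these shares describe the calls only.

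Coverage per domain had a median of 61.6% in replicate 1 (0 to 100%) and 74.9% in replicate 2 (28.3% to 100%). The shares of the 2 replicates rose together across domains (Spearman's rho 0.76, n = 247 domains of the same libraries). Replicate 1 covered more than replicate 2 in 76 wide domains (30.8%), against 11.6% of all joined stretches, and less in the other 171. In dense domains the replicates were close in summed length, with 92.8% and 93.2%, a mean of 93.0% ± 0.216 (SD, n = 2). Differences in opposite directions cancel in that sum. Per dense domain, replicate 1 minus replicate 2 ran from −48.2 to 19.8 percentage points, with a median of 1.08. Replicate 1 covered as little as 44.0% of a dense domain. In summed length the replicates were further apart in middle domains, at 62.8% and 72.5% (67.6% ± 6.86). They were furthest in patchy ones, at 26.4% and 48.8% (37.6% ± 15.9; SD, n = 2 each). Replicate 1 covered more in 40 of 68 dense, 30 of 123 middle and 6 of 56 patchy domains.

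**Figure D3:**
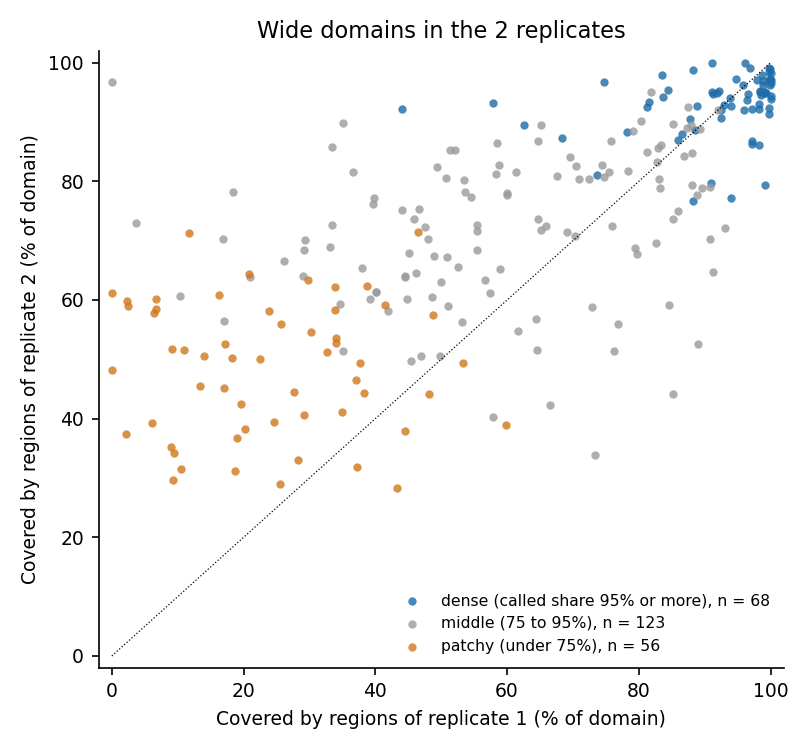
Share of each wide domain covered by regions of replicate 1 (x axis, %) and of replicate 2 (y axis, %), 1 point per domain, coloured by the called share in the whole-series list; the dotted line marks equal coverage. Most dense domains crowd near 100% in both replicates, though replicate 1 covered as little as 44.0% of a dense domain. Of the 56 patchy domains, 50 lie above the line, fuller in replicate 2.

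Even dense domains were cut differently in the 2 lists. In replicate 1 they had 272 breaks of a median of 705 bp, and 21 of the 68 domains had none. In replicate 2 they had 501 breaks of a median of 530 bp, and 2 domains had none. Of the break length, 32.5% in replicate 1 and 30.8% in replicate 2 was uncovered in the other replicate too. Most of the break length in dense domains was therefore found in 1 list only. Over the whole dense length, however, replicate 1 covered 92.8% and replicate 2 covered 93.2%. Sequence in a break of 1 replicate was thus uncovered in the other more often than dense sequence as a whole.

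The domains with the most and the least coverage differed in make-up. The 3 with the highest mean coverage lay on 3R and were each a single region of the whole-series list. They were the domains at 26511807 to 26614963 (103 kb, 99.9% and 98.98%), 12185320 to 12258177 (72.9 kb, 99.7% and 99.1%) and 26427289 to 26506116 (78.8 kb, 100% and 98.2%). The lowest was a domain of 51.3 kb in 12 regions at 11722372 to 11773681 on 2L, 46.2% called, with 9.25% in replicate 1 and 29.7% in replicate 2. The next were at 8193778 to 8257780 on 3L (64.0 kb, 44.0% called, 2.08% and 37.5%) and at 10219249 to 10320877 on 3L (101.6 kb, 57.8% called, 10.5% and 31.5%).

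The 3 domains with no region of replicate 1 were named after their values had been seen. That at 4481048 to 4527705 on 2L stood apart: replicate 2 covered 96.7% of its 46.7 kb with 3 regions, and replicate 1 covered 0%. The others were at 4211617 to 4279846 on 2L (61.2% in replicate 2) and 25072006 to 25124807 on 3R (48.2% in replicate 2). The largest excess the other way was at 3965247 to 4028887 on 2L, where replicate 1 covered 85.2% and replicate 2 covered 44.1%. Of these 4 domains, 3 lay between 3965247 and 4527705 on 2L.

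When the same rule was run on each replicate's own list, replicate 1 gave 152 wide domains and replicate 2 gave 205. A wide domain counted as matched where the length shared with 1 wide domain of the replicate was at least 50% of the length covered by either. This held for 124 of the 247 in replicate 1, 175 in replicate 2 and 109 in both. At 90% the counts were 72, 121 and 59. No wide domain of the replicate touched 103 of the 247 in replicate 1 and 54 in replicate 2, and 43 were touched in neither, so these reached 40 kb only in the whole-series list.

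Edges were measured as the outermost ends of the replicate's regions that touched a domain. Of 494 edges, 488 could be placed in both replicates, and the distance between the 2 placements had a median of 1784.5 bp and ran from 1 bp to 55415 bp. It was within 100 bp at 53 edges (10.9%), within 1000 bp at 190 (38.9%), within 5000 bp at 357 (73.2%) and within 10000 bp at 410 (84.0%). Starts and ends had like medians, 1791.5 bp and 1738.5 bp. The medians on 2L and 3R were 1572.5 bp and 1488 bp, and that on 3L was 2472.5 bp.

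Edge placement differed between the classes, which were set by called share. An edge is the outermost region touching a domain, so missing calls alone move it inward. In dense domains the median distance was 744.5 bp, with 78 of 136 edges (57.4%) within 1000 bp. It was 2105 bp in middle domains (86 of 244 edges, 35.2%) and 4962.5 bp in patchy ones (26 of 108 edges, 24.1%). The ends of the Hox domains were 1114 bp and 1435 bp apart for the Antennapedia complex and 3489 bp and 4230 bp apart for the bithorax complex. Closer placements were seen at the ems and E5 domain, 52 bp and 229 bp, and at a middle domain of 3R, 16156910 to 16335541, 40 bp and 29 bp. The 3 domains with the largest mean of their 2 edge distances each had 1 region of replicate 1, whose ends were both taken as edges. They lay at 8193778 to 8257780 on 3L (30825 bp and 31948 bp), 14095072 to 14158310 on 2L (6356 bp and 55415 bp) and 16268338 to 16325720 on 3L (14479 bp and 42244 bp).

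Replicate 2 lay closer to the edges of the whole-series list. Its median distance to them was 148 bp, with 69.4% of edges within 500 bp. For replicate 1 the median was 1301.5 bp, with 41.8% within 500 bp. Edges of replicate 1 lay inside the whole-series edge in 79.7% of cases and more than 5000 bp inside at 136 edges (27.9%). In replicate 2 this occurred at 14 edges (2.83%). In patchy domains the medians were 6641.5 bp for replicate 1 and 183 bp for replicate 2, and in dense ones 243.5 bp and 113 bp. The sources used here do not state how the whole-series list was made from the replicates, and the part of the longer list of replicate 2 in its edges was not tested.

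Averaged over all 494 edges, coverage by both replicates stepped up at the edge. In the first 0.5 kb inside the edge, 34.8% of the sequence lay in regions of replicate 1 and 63.4% in regions of replicate 2. Replicate 1 was at 49.3% at 1.25 kb, dipped slightly to 47.2% at 2.25 kb and then climbed slowly to 63.8% at 18.25 kb inside. Replicate 2 reached 76.8% at 1.25 kb, fell to 63.8% at 2.25 kb and stood at 73.6% at 18.25 kb. In the first 0.5 kb outside, the values were 6.35% and 10.5%, and at 3.75 kb outside 0.672% and 2.68%. Beyond the 5000 bp that the rule keeps free of whole-series calls, coverage was higher again, at 17.2% and 33.4% at 19.75 kb outside, where the whole-series list stood at 37.5%. The whole-series list is at 100% just inside and at 0% just outside, which the rule fixes. The replicate lists rest on the same libraries, so their steps are partly built in and are no independent support for the edges. Further in it dipped to 74.9% at 2.25 kb and stood at 86.6% at 18.25 kb.

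**Figure D4:**
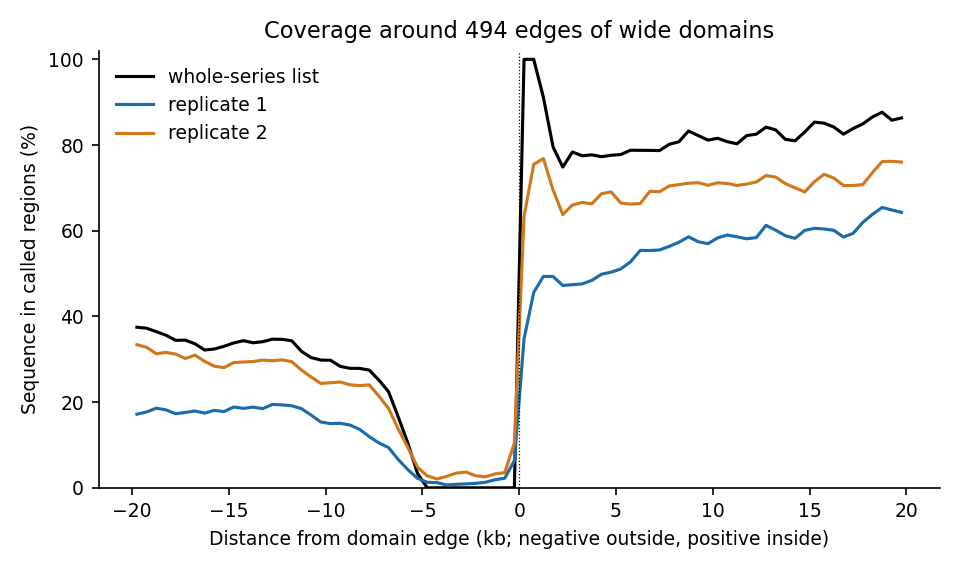
Share of sequence in called regions (y axis, %) in bins of 500 bp around the 494 domain edges, against the distance from the edge (x axis, kb, negative outside), for the whole-series list and both replicates. All 3 lines step up at the edges, which were taken from the whole-series list of the same libraries. Replicate 1 starts at 34.8% in the first bin inside, below replicate 2 at 63.4%.

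Each called region carries a score deposited by the authors, on a scale that the labels and headers leave unstated. Scores were averaged over a domain with each region weighted by its length and were ranked only within a list. The per-domain score of the whole-series list had a median of 0.713 (0.360 to 2.28), and 217 of 247 domains were above 0.469, the median of all regions of that list. That median is of single regions without weighting, so it is not a like measure. Weighted in the same way, stretches of 10 to 40 kb had a median of 0.484 and those under 10 kb 0.410. Dense domains had a median of 1.49, middle ones 0.689 and patchy ones 0.477. The highest scores belonged to 3 domains of 3R. The domain at 647217 to 714292, 67.1 kb and a single region, scored 2.28 and ranked 1 in the whole-series list, 1 in replicate 1 and 3 in replicate 2. The domain at 25508874 to 25548945, one of those just past the width limit, scored 2.22 and ranked 2, 2 and 1. The domain at 25321452 to 25417461, 96.0 kb, scored 2.18 and ranked 3, 3 and 4. The same few domains thus stood at the top of every list.

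Among the named loci, the NK cluster ranked 4, the odd-skipped cluster 7, the bithorax complex 13 and the Antennapedia complex 28 of 247 by score in the whole-series list. The Enhancer of split domain had the lowest score of the named loci, 0.990, at rank 80. The lowest scores of all lay at 6787980 to 6842168 on 3R and 11722372 to 11773681 on 2L (0.36 each) and 16268338 to 16325720 on 3L (0.37), all patchy. Within the wide domains, Spearman's rho with the score was 0.86 for the called share, 0.89 for the share held by the widest region and 0.27 for width (n = 247). These values cannot be weighed against each other. The rule had already selected for width, and the called share and the score come from the same calls. Across the width classes the median score did rise, from 0.410 under 10 kb to 0.484 at 10 to 40 kb and 0.713 in wide domains. The domains share libraries and the score may depend on region length, which was not tested.

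The order of domains by score was much alike in the 2 replicates (Spearman's rho 0.91, n = 244 domains with regions in both). Of the 20 highest domains of the whole-series list, 18 were among the 20 highest in replicate 1 and 16 in replicate 2. Inside the 214 domains of 3 or more regions, the widest region had a median score of 0.774, against 0.525 for the mean of the 2 outermost regions, and scored above them in 186. The widest region had the highest score of its domain in 87 of the 214. It was picked on length, and it can itself be an outermost region, as in the Iroquois domain. A difference between the centre and the edges of domains therefore cannot be read from these values.

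Wide domains were unevenly spaced. The 244 spacings between neighbours had a median of 111 kb and ran from 5.087 kb to 1908 kb. The median was 90.9 kb on 2L, 97.8 kb on 3R and 138 kb on 3L. Neighbours were under 10 kb apart in 31 cases, 10 to 50 kb in 53, 50 to 200 kb in 82, 200 to 500 kb in 52 and 500 kb or more in 26. Smaller joined stretches filled a median of 21.8% of a spacing, and 59 spacings, including all 31 under 10 kb, held none.

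The closest neighbours were separated by little more than the joining limit. A pair on 3R, 19212180 to 19353610 and 19358698 to 19413562, lay 5087 bp apart. Replicate 1 covered 0% of that spacing and replicate 2 covered 26.4%. On 2L the wingless domain lay 5137 bp from the domain at 7349523 to 7392502, and neither replicate had any region between them. On 3L the domains at 10080055 to 10153947 and 10159086 to 10208472 lay 5138 bp apart, with 0% and 2.18% covered. Over the 31 spacings under 10 kb, replicate 1 touched 13 and replicate 2 touched 12, so most of these short breaks were free of calls in a given replicate. The spacing after 23917402 to 23999490 on 3R was the only one touched by both (0.910% and 0.484% covered). Far fewer spacings were therefore free of calls in both replicates. A touch counts any overlap, however, and many were slight. Replicate 1 covered 0.0128% of the spacing after 1054382 to 1154736 on 3L, and replicate 2 covered 0.0189% of that after 4830317 to 4901282 on 3L. The largest share was 40.6%, by replicate 1 after 5926087 to 5966554 on 3L.

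Close neighbours formed chains. With a limit of 20 kb, set after the spacings had been seen, 80 domains lay in 35 chains, 10 of them of 3 or more, and 167 domains had no other within 20 kb. The longest chain by span, 550.0 kb at 2341396 to 2891351 on 3R, was made of the Antennapedia domain and a domain of 129 kb before it, and was 97.2% domain and 91.6% called. The next by span were chains of 3 domains each. One lay on 3L at 22301330 to 22706846 (406 kb, 93.7% domain and 86.9% called), and the others on 3R at 26658452 to 26993494 (335 kb) and 23815559 to 24143814 (328 kb).

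The widest spacing of each arm was 1908 kb on 3R, after the domain at 4237010 to 4333544, 1124 kb on 2L, after 20583354 to 20638780, and 1049 kb on 3L, after 18544436 to 18587176. They held 39, 23 and 32 smaller stretches and so were not free of calls. In 74 full windows of 1 Mb, wide domains filled a median of 29.1%. They filled at least 50% of 9 windows, 5 of them on 3R, with the highest share, 66.7%, at 13000001 to 14000000 on 3L. A pair of windows held none, 23000001 to 24000000 on 3L and 5000001 to 6000000 on 3R. At the arm ends of highest coordinate, the last wide domain stopped 116 kb before the end of 3R, 926 kb before that of 2L and 1837 kb before that of 3L. At the ends of lowest coordinate, the first wide domain began after 647 kb on 3R, 358 kb on 2L and 365 kb on 3L. Ends were taken by coordinate, without regard to which of them faces the centromere, so they are not compared between arms.

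**Figure D5:**
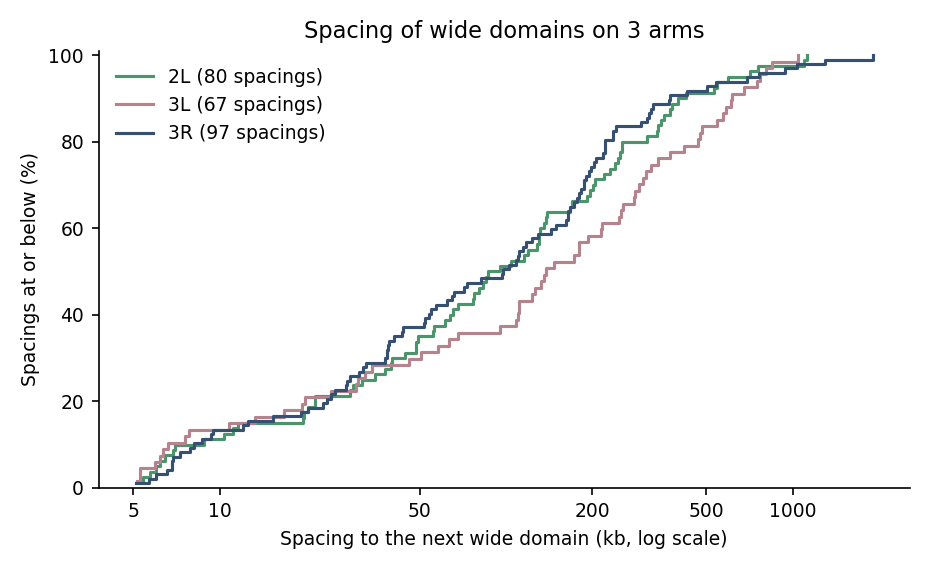
Cumulative share of spacings between neighbouring wide domains (y axis, %) at or below a given length (x axis, kb, log scale), for each arm. The curve of 3L lies to the right over most of its length, with a median of 138 kb against 90.9 kb on 2L and 97.8 kb on 3R; the longest spacing, 1908 kb, is on 3R.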

How the data were processed

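H3K27me3 ChIP-seq of head nuclei was given as lists of enriched regions, 1 for each of 2 ChIP replicates and 1 for the whole series. The submitters' processing notes name the aligner Bowtie 0.12.7. The sources used here do not state the caller, its threshold or how the whole-series list was made. Positions are 1-based on FlyBase release 5, per the file headers. The score of each region was deposited by the authors; its scale and the read depth are unknown, so it only ranked regions within a list, and no counting interval could be given. A region marked as depleted (1, in replicate 2) was left out, and 1 start in exponent form was read as a number.

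Wide domains, coverage, edges and spacing were computed in Python 3.11.15 with NumPy 2.4.6, SciPy 1.17.1 and matplotlib 3.10.9. The code was tested on 20 simulated lists against a base-by-base count and gave the same domains and covered shares in all 20. No test was run on the regions: the 2 replicates allow a mean and SD only. The members, loci and lists were chosen with earlier results of these data known. The domains named were the 8 widest per arm, the 3 extremes of coverage, score and edge distance, the closest pairs, the widest spacings, those next to the width limit, and a list of known loci. Others are marked as chosen after their values were seen. A gene table of release 6 was not used for positions, since coordinates were not carried between releases, and no sequence is shown. Alternatives were other joining gaps and minimum widths, a score limit, other edge and averaging rules, and each replicate alone.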

Additional observations from a re-analysis of the deposited data

How the results depend on the processing

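Of 38 alternative values for 7 results, 19 stayed within the spread between replicates (counts: within 1.5 times) and 19 moved. The coverage of a single replicate could not move, because the limit was the spread of those same values. For the edge distance the limit was the SD of the replicates' median distances to the whole-series edge. Scores of a single replicate are on that list's own scale, so their move cannot be read. Joining at gaps under 2500 bp gave 16.8 Mb of wide domains, 94.3% called, replicate coverage of 81.1%, an edge distance of 940.5 bp and a median spacing of 148 kb. Joining at gaps under 10000 bp gave 32.8 Mb, 75.8%, 58.9% and 3452 bp. With a score limit at the median of the whole-series list there were 153 domains of 14.3 Mb. With such a limit on the replicate lists instead, they covered 58.5% of the 247 domains' length. A minimum width of 30000 bp gave a median spacing of 68.1 kb, and a plain mean over regions gave a median score of 0.572. On 1 replicate's list alone, the rule gave 152 to 205 domains of 13.9 to 18.5 Mb. For the 247 domains, a single replicate gave coverage of 66.4% to 75.2% and median scores of 0.801 to 0.879, on each list's own scale. In each of these 4 ranges the lower value was that of replicate 1. The edge distance needs both replicates and could not be computed without either. Number was within 1.5 times of 247 under the other joining gaps and widths (195 to 334). No paired analysis was possible because the study has 1 ChIP group, the inputs have no list and no test was run. Depth is unknown, so signal below the authors' threshold cannot be told from its absence.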
